A study of Rattus norvegicus with 96 samples.

Results

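Here 7 subunit genes of the GABA-A receptor, the chloride channel opened by the transmitter GABA, were described in rat brain after ethanol drinking. The genes were Gabra2, Gabra4, Gabra5, Gabrb1, Gabrb2, Gabrd and Gabrg1, and every probe set that the platform annotation maps to one of these 7 symbols was taken, whatever its values. This gave 10 probe sets of the 31042 on the array that are not controls, and 7 of the 14217 genes that a probe set names alone. Gabrb2 has 2 probe sets, Gabrd has 3 and each of the other genes has 1. A probe set is a group of short probes against one transcript, and its value here is a deposited log2 signal, so a difference of 1 is a 2-fold difference in signal.

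The arrays came from alcohol-preferring (P) rats, a line bred for high ethanol intake. Tissue was the central nucleus of the amygdala (CeA) or the nucleus accumbens, shell part (NAc shell), taken 1, 6 or 24 h after the last episode of limited-access, binge-like drinking. Ethanol rats were compared with rats of the same line given water and no ethanol. In the CeA, ethanol rats gave 11, 10 and 10 arrays at 1, 6 and 24 h, and water rats gave 6, 5 and 6. In the NAc shell, ethanol rats gave 10, 10 and 11 arrays, and water rats gave 7, 5 and 5. Age and sex are not given in the sources used here, and no gene was altered in any group. The labels do not say that each array of a group is a separate rat, so the p-values measure the spread between arrays, nor do they say whether both regions came from the same rats.

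GABA-A receptors are rings of 5 subunits, most often made of alpha, beta and gamma or delta subunits. The alpha subunit largely sets where in the cell a receptor sits and which drugs act on it, the beta subunit forms the GABA site together with alpha, and the gamma subunit gives the benzodiazepine site with alpha and helps to hold receptors at synapses. Receptors with a delta subunit, often paired with alpha 4, lie outside synapses, carry a steady inhibitory current and are sensitive to neurosteroids. Both regions consist mainly of GABA neurons that also receive GABA input, and ethanol is known to increase GABA transmission in the CeA.

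Of these genes, 4 stand side by side in the rat genome. In the RefSeq annotation of build GRCr8 the order on chromosome 14 is Gabrb1, Gabra4, Cox7b2, Gabra2 and Gabrg1, between Commd8 and Gnpda2. Gabra5 lies on chromosome 1, Gabrb2 on chromosome 10 between Gabra6 and Atp10b, and Gabrd on chromosome 5 between Prkcz and Cfap74. Within the chromosome 14 cluster Gabrb1, Gabra2 and Gabrg1 read higher in the CeA, whereas Gabra4, at low signal in both regions, read higher in the NAc shell.

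RefSeq promoter entries were found for 6 of the 7 members, Gabra2 being the exception. The 250 bases before the annotated start are shown for Gabrg1, whose signal was higher in the CeA, for Gabrd, whose signal was higher in the NAc shell, and for Gabrb2, whose bright probe set had a negative ethanol difference in the CeA with an interval below 0. Gabrg1 is at chr14:37750042-37750291 on the plus strand, Gabrd at chr5:171252710-171252959 on the minus strand and Gabrb2 at chr10:27439543-27439792 on the plus strand, all in GRCr8. Capitals mark matches to a CCAAT box or a GC box on either strand.
Gabrg1: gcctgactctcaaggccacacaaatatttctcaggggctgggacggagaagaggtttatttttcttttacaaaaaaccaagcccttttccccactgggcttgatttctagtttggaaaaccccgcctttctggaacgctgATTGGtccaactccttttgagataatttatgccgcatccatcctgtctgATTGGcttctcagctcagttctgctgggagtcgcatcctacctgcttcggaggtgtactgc
Gabrd: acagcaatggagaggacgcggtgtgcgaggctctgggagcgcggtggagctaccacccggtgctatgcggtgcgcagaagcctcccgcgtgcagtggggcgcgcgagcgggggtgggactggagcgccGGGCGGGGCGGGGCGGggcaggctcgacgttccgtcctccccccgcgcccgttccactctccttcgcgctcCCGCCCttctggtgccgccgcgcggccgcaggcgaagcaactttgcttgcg
Gabrb2: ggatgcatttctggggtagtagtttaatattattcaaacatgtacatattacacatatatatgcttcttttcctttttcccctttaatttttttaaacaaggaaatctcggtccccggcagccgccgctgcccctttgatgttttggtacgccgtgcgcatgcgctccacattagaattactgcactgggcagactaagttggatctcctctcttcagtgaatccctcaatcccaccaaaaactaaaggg
A set of 5 motifs was searched on both strands in the window from 250 bases before to 50 after the start, with overlapping matches counted. The set held the letters TATAAA of a common core-promoter box, the CCAAT box spelled by its name, the letters GGGCGG of the GC box, TGACGTCA of the cAMP response element and GCGGGGGCG of an Egr site, found in 14.3%, 37.7%, 34.9%, 1.91% and 2.78% of all 27457 promoters of that length. Gabrg1 held 2 CCAAT boxes and no GC box, with 6 CG pairs and 48.7% G or C. Gabrd held 4 GC boxes and no CCAAT box, with 40 CG pairs and 73.7% G or C. Gabrb2 held none of the 5 motifs, with 9 CG pairs and 44% G or C, against a median of 7 CG pairs over all promoters. A match is a description of the letters only.

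Before any comparison, some facts of the whole table touch the values below. The labelled tissues were checked against marker genes. Crh, the stress peptide made by CeA neurons, averaged 9.15 in the CeA against 6.50 in the NAc shell, and Prkcd averaged 9.68 in the CeA against 8.88 in the NAc shell. The other way round, Drd1 and Ppp1r1b, markers of striatal projection neurons, averaged 11.30 and 10.62 in the CeA against 13.74 and 13.28 in the NAc shell. The other 5 of the 7 measured CeA markers, Calcrl, Tac3, Nts, Sst and Isl1, were lower in the CeA (5.26, 7.91, 11.04, 11.58 and 8.60 in the CeA, against 5.93, 8.85, 11.52, 11.85 and 9.12 in the NAc shell), so the CeA label rests on 2 of its 7 markers. The regions look separately normalised, with array lower quartiles of 5.75 to 5.88 in the CeA against 6.01 to 6.16 in the NAc shell, and the CeA−NAc shell differences below carry that limit. The CeA titles number the arrays within each treatment, and the hours restart along those numbers, which divides the CeA arrays into 4 runs of 5, 10, 10 and 6 ethanol and 3, 6, 6 and 2 water arrays. The labels do not say what a run stands for. Runs were found separately in each treatment and matched by their order. That an ethanol run and the water run of the same place belong together is an assumption. The run block and the within-run differences below rest on it. Both water arrays of the fourth run were taken at 6 h. The Gapdh 3′ minus 5′ signal, a measure of RNA integrity and labelling, averaged 2.46, 2.51, 3.45 and 3.09 over the 4 runs. It ranged over 2.19 to 3.82 in CeA ethanol arrays and 2.17 to 3.70 in CeA water arrays. In the NAc shell it averaged 1.81, and ranged over 1.31 to 2.24 in ethanol arrays and 1.51 to 2.32 in water arrays. This signal thus differed by region with little overlap, and the CeA−NAc shell differences carry that limit too. In the CeA 3 arrays, all in the fourth run (1 h ethanol, 6 h ethanol and 6 h water), and in the NAc shell 5 ethanol arrays correlated less with the rest of their region than the others did.

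The first comparison asked how subunit signal differs between the regions. Gabra2, Gabrb1, Gabrb2 (by its bright probe set) and Gabrg1 were higher in the CeA, and Gabra5 and Gabrd were higher in the NAc shell, in ethanol rats and in water rats alike. The largest differences were those of Gabrd, the extrasynaptic delta subunit, whose NAc shell signal in ethanol rats was 3.88-fold that of the CeA, and of Gabra2, 2.2-fold higher in the CeA of ethanol rats. All 8 of the 8 member probe sets that were tested passed in ethanol rats and in water rats (limma, adjusted p under 0.05 over all probe sets), but so did 82.8% and 76.2% of the 19678 probe sets tested, so passing is near the background. The median absolute difference over all probe sets was 0.36 in ethanol rats. Of the 8, Gabrg1 and Gabrd 1395270_x_at entered the test only through the region where they are high. In bulk tissue, fewer cells of a type and less RNA per cell cannot be told apart.

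**Figure D1:**
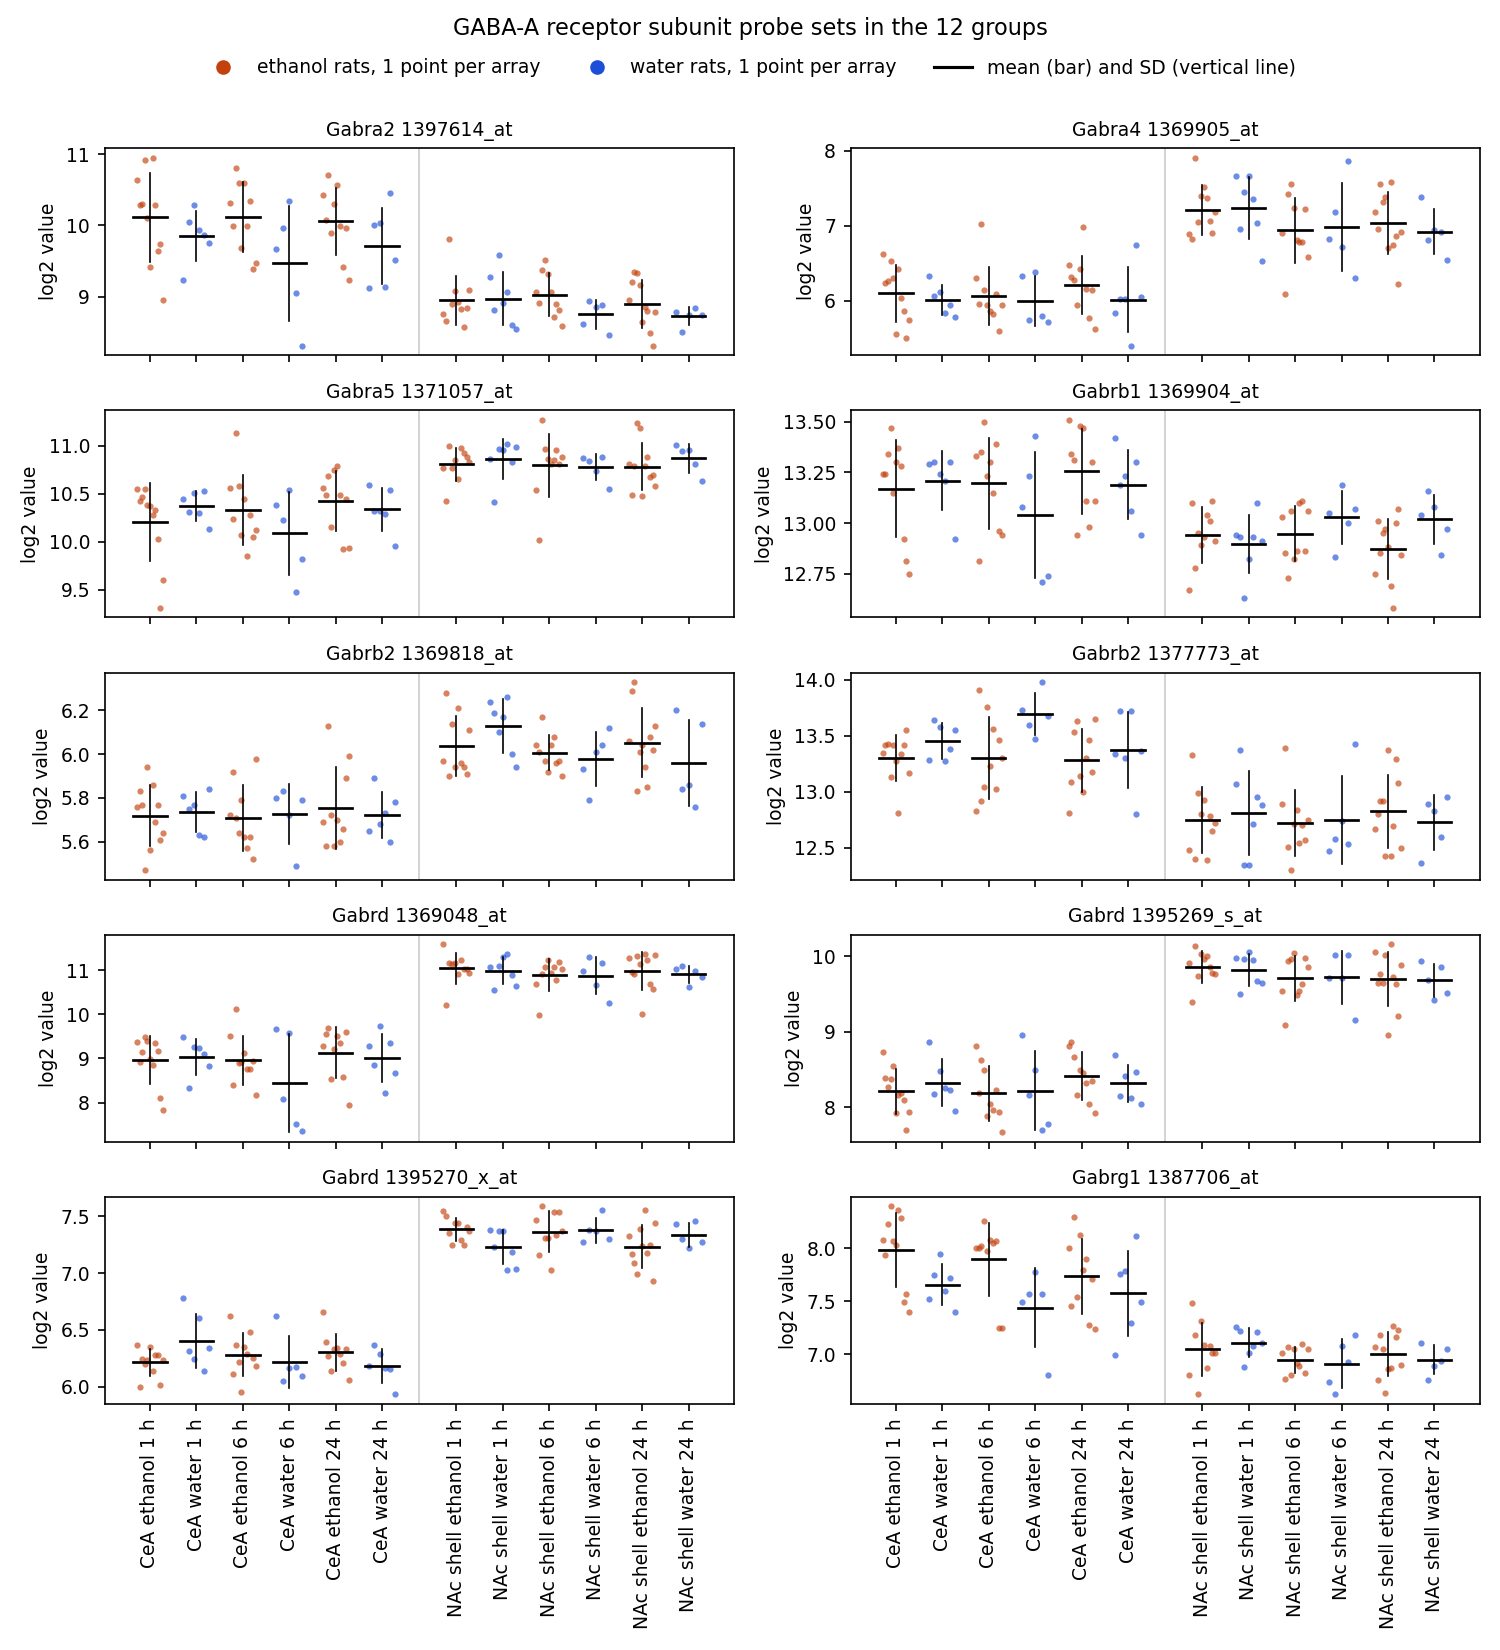
Log2 signal of each of the 10 member probe sets on every array (points), by region, treatment and hours after the last drinking episode, with the group mean (bar) and SD. For every probe set the 6 group means of one region lie above the 6 of the other, and ethanol and water arrays overlap within each region.

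Among the alpha subunits, Gabra2 encodes alpha 2, a synaptic subunit whose human gene has been studied for years in relation to alcohol dependence. Its signal averaged 10.10 ± 0.52 in the CeA against 8.96 ± 0.32 in the NAc shell of ethanol rats (SD, n = 31 each), and 9.69 ± 0.56 in the CeA against 8.84 ± 0.28 in the NAc shell of water rats (n = 17 each). The CeA−NAc shell difference was 1.14 ± 0.11 in ethanol rats (SE, adjusted p = 4.13e-16) and 0.86 ± 0.15 in water rats (adjusted p = 3.9e-07). The regions overlapped in part, with 22 of 31 CeA ethanol arrays above every NAc shell ethanol array and 11 of 17 CeA water arrays above every NAc shell water array. Only 6.92% of all probe sets differed at least this far between regions in ethanol rats.

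Gabra5 encodes alpha 5, best known from extrasynaptic receptors of the hippocampus. It averaged 10.32 ± 0.36 in the CeA against 10.80 ± 0.25 in the NAc shell of ethanol rats, and 10.28 ± 0.29 in the CeA against 10.84 ± 0.17 in the NAc shell of water rats. The difference was −0.47 ± 0.07 in ethanol rats (adjusted p = 9.97e-09) and −0.57 ± 0.10 in water rats (adjusted p = 2.99e-07). The regions overlapped, with 5 of 31 CeA ethanol arrays and 11 of 17 CeA water arrays below every NAc shell array of the same treatment. With the Gapdh 3′ minus 5′ signal as a covariate, the difference in ethanol rats was −0.19 and did not pass (adjusted p = 0.0838).

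Gabra4 encodes alpha 4, the usual partner of delta. Its probe set averaged below the limit of the filter in both regions and was not among those tested. It averaged 6.13 ± 0.38 in the CeA against 7.06 ± 0.40 in the NAc shell of ethanol rats, and 6.01 ± 0.31 in the CeA against 7.07 ± 0.44 in the NAc shell of water rats. In the fit without a filter the difference was −0.94 ± 0.10 in ethanol rats (adjusted p = 5.76e-15) and −1.04 ± 0.13 in water rats (adjusted p = 2.59e-11). Its direction was that of Gabrd, and 15 of 31 CeA ethanol arrays and 13 of 17 CeA water arrays lay below every NAc shell array of the same treatment. Other subunits under the filter in both regions also read higher in the NAc shell, except Gabra3 (5.71 in the CeA against 5.64). Gabra6 averaged 4.95 in the CeA against 5.69 in the NAc shell, and Gabrr2 6.15 against 6.40. Whether the Gabra4 difference goes beyond such an offset at low signal was not tested.

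Of the beta subunits, Gabrb1 encodes beta 1. It averaged 13.21 ± 0.22 in the CeA against 12.92 ± 0.14 in the NAc shell of ethanol rats, and 13.15 ± 0.21 in the CeA against 12.97 ± 0.14 in the NAc shell of water rats. The difference was the smallest among the tested member probe sets, 0.29 ± 0.05 in ethanol rats (adjusted p = 3.46e-08) and 0.17 ± 0.06 in water rats (adjusted p = 0.0139). Even so, 21 of 31 CeA ethanol arrays and 11 of 17 CeA water arrays lay above every NAc shell array of the same treatment.

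Gabrb2 encodes beta 2, and its 2 probe sets gave opposite regional differences. The bright one, 1377773_at, averaged 13.29 ± 0.28 in the CeA against 12.77 ± 0.30 in the NAc shell of ethanol rats, and 13.49 ± 0.27 in the CeA against 12.77 ± 0.33 in the NAc shell of water rats. Its difference was 0.53 ± 0.07 in ethanol rats (adjusted p = 5.78e-10) and 0.74 ± 0.10 in water rats (adjusted p = 3.22e-10), with 13 of 31 and 10 of 17 CeA arrays above every NAc shell array. The dim one, 1369818_at, did not pass the filter in either region, and its values ranged over 5.47 to 6.13 in the CeA against 5.83 to 6.33 in the NAc shell of ethanol rats. Without a filter its difference was −0.30 ± 0.04 in ethanol rats (adjusted p = 9.27e-13) and −0.29 ± 0.05 in water rats (adjusted p = 7.47e-08). The dim probe set lay at the 23.6th percentile of mean signal in the CeA and the 23.9th in the NAc shell. At that level the array lower quartiles were also lower in the CeA, 5.75 to 5.88 against 6.01 to 6.16. Whether its difference goes beyond that offset was not tested. The gene is left uncertain in its regional direction, and the bright probe set is the one followed below.

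Gabrd, the delta subunit, was the member whose regions were most clearly apart, by all 3 of its probe sets. The probe set 1369048_at had lowest, median and highest values of 7.82, 9.13 and 10.13 in the CeA against 9.99, 11.03 and 11.59 in the NAc shell of ethanol rats. In water rats they were 7.35, 9.09 and 9.74 in the CeA against 10.25, 10.99 and 11.37 in the NAc shell. Of the 31 CeA ethanol arrays, 30 lay below every NAc shell ethanol array, and all 17 CeA water arrays lay below every NAc shell water array. The difference was −1.96 ± 0.13 in ethanol rats (adjusted p = 3.81e-26) and −2.09 ± 0.17 in water rats (adjusted p = 8.97e-20), and 1.03% and 0.798% of all probe sets differed at least as far. The other probe sets of the gene, 1395269_s_at and 1395270_x_at, come from one source sequence, and their arrays did not overlap between regions in either treatment. Their differences in ethanol rats were −1.48 ± 0.08 (adjusted p = 1.15e-31) and −1.06 ± 0.04 (adjusted p = 1.88e-40), so the 3 probe sets gave the same direction with NAc shell over CeA ratios of 3.88, 2.8 and 2.09. The suffix x marks a probe set that may also bind other transcripts. This one lay under the filter in the CeA and entered the test only through the NAc shell. Its p-value is therefore no separate support. The share of all probe sets whose arrays do not overlap between regions was not counted, here or for the other members.

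Gabrg1 encodes gamma 1, a subunit with a narrow distribution in the brain that includes the amygdala. It had lowest, median and highest values of 7.24, 8.0 and 8.40 in the CeA against 6.62, 7.01 and 7.48 in the NAc shell of ethanol rats. In water rats they were 6.80, 7.57 and 8.12 in the CeA against 6.62, 7.05 and 7.26 in the NAc shell. In all, 25 of 31 CeA ethanol arrays and 15 of 17 CeA water arrays were above every NAc shell array of the same treatment. The difference was 0.88 ± 0.07 in ethanol rats, a 1.83-fold signal (adjusted p = 1.57e-20), and 0.57 ± 0.10 in water rats, a 1.48-fold signal (adjusted p = 1.29e-07). Its mean in the NAc shell lay below the limit of the filter there, 7.09, so it entered the test only through the CeA, where it is high. Its regional p-values are therefore no separate support.

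**Figure D2:**
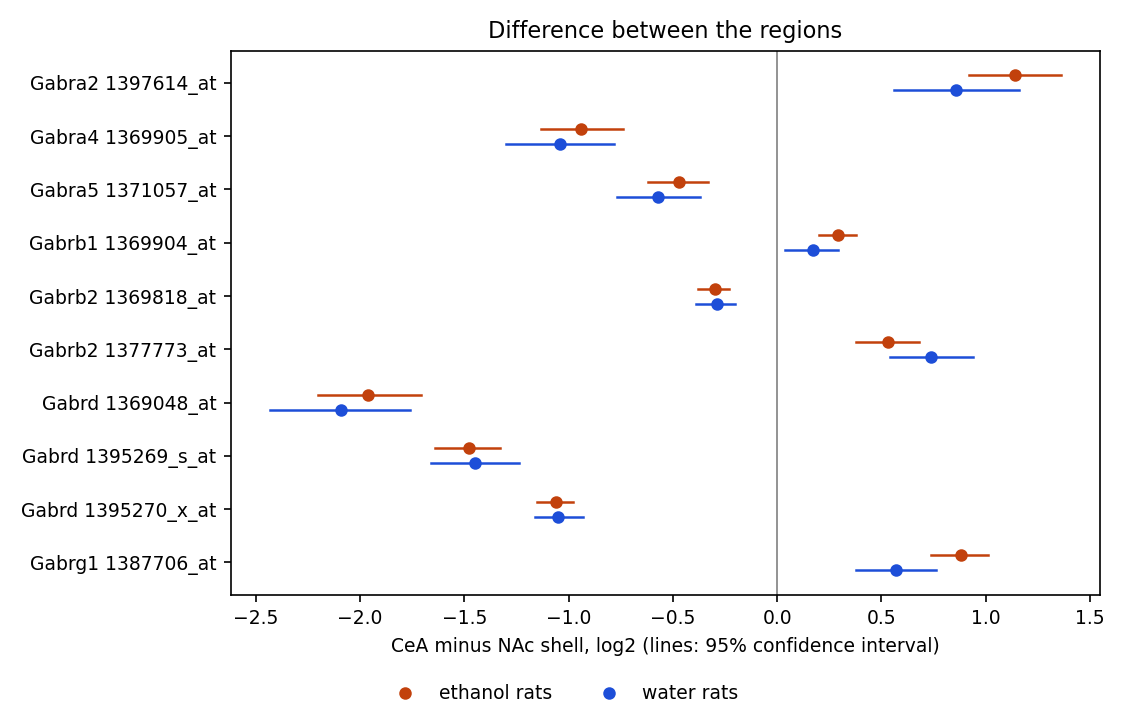
CeA minus NAc shell difference in log2 signal for each member probe set in ethanol and in water rats, with 95% confidence intervals. The 3 Gabrd probe sets and Gabra4 lie furthest below 0 and Gabra2 furthest above, and the 2 Gabrb2 probe sets lie on opposite sides of 0.

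The regional differences stood beside differences in cell markers, whose part in them was not tested. All 7 measured markers of striatal projection neurons were lower in the CeA, with a median difference of −2.42 in ethanol rats and −2.63 in water rats, the range of the 7 being −2.80 to −1.98 in ethanol rats. All 7 passed, where 43.7% of all probe sets passed as lower in the CeA in ethanol rats and 39.6% in water rats. Oligodendrocyte markers were the other way round, with 4 of 5 passing as higher in the CeA in each treatment and a median of 0.79 in both, where 39.1% of all probe sets passed as higher in ethanol rats and 36.6% in water rats.

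The group means of one region lay close together. For every probe set the 6 groups of one region ranked above the 6 of the other, and neighbours within a region differed by no more than the larger of their SDs, with 1 exception. That was Gabrb2 1377773_at, at 13.69 ± 0.19 in CeA water rats at 6 h and 13.45 ± 0.16 at 1 h. The SD within groups was uneven across members in the CeA. It was 0.62 for Gabrd 1369048_at and 0.55 for Gabra2, larger than for 98.6% and 97.7% of all probe sets, against 0.22 for Gabrb1 and a median of 0.19 over all probe sets. Gabra4 had the widest spread in the NAc shell (0.42, above 96.8% of probe sets) and Gabrb1 the narrowest of the tested single-probe-set members (0.14).

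The second comparison asked whether signal in the CeA differs between ethanol and water rats, averaged over the 3 times. Gabrg1 and Gabra2 read higher and Gabrb2 (1377773_at) lower in ethanol rats, with confidence intervals that did not reach 0, but none of the 7 tested member probe sets passed over all probe sets. Neither did any other: 0 of 18625 (0%) passed in limma, with 1519 (8.16%) under an unadjusted p of 0.05. With the 4 runs as a block, Gabrg1 rose by 0.35 and passed (adjusted p = 0.0172). It was 1 of the 7 tested member probe sets, against 0.258% of all probe sets (48, of which 43 were higher in ethanol rats). The members were chosen with earlier results of these data known, so this count is a description only.

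Gabrg1 had lowest, median and highest values of 7.40, 8.07 and 8.40 at 1 h in ethanol rats, against 7.40, 7.66 and 7.95 in water rats. At 6 h they were 7.25, 8.01 and 8.26 in ethanol rats, against single values of 6.80, 7.49, 7.57, 7.57 and 7.78 in water rats. At 24 h they were 7.24, 7.75 and 8.30 in ethanol rats, against 6.99, 7.63 and 8.12 in water rats. The groups overlapped at each time, with 7 of 11, 8 of 10 and 2 of 10 ethanol arrays above all water arrays of the same time. Over the 3 times, 22 of 31 ethanol arrays were above the median of the water arrays and none was below their lowest. The difference was 0.32 ± 0.10 (SE, 95% confidence interval 0.11 to 0.52), a 1.24-fold signal, with p = 0.0034 and adjusted p = 0.396.

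The run means show where the block acts. In runs 1 to 4 Gabrg1 averaged 7.89, 8.08, 7.97 and 7.37 in ethanol rats and 7.33, 7.69, 7.68 and 7.19 in water rats. Both treatments were lowest in run 4. The within-run differences, here and below, were fitted with time and so need not equal the differences of these means. They were 0.59 ± 0.15, 0.39 ± 0.11, 0.28 ± 0.14 and 0.06 ± 0.25, above 0 in 4 of 4 runs. In run 4 all water arrays were at 6 h, so for every member its difference rests on the arrays of that time. For Gabrg1 these were 7.25 and 7.25 in ethanol rats, against 7.57 and 6.80 in water rats, so run 4 shows no clear direction. With the run block the difference was 0.35 ± 0.07 (0.21 to 0.49), a 1.28-fold signal. Array quality weights without a block also passed it (0.39, adjusted p = 0.0363), and without the 3 low-correlation arrays the blocked difference was 0.40 (adjusted p = 0.00133).

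Gabra2 had lowest, median and highest values of 8.96, 10.28 and 10.95 at 1 h in ethanol rats, against 9.24, 9.90 and 10.28 in water rats. At 6 h they were 9.39, 10.15 and 10.80 in ethanol rats, against single values of 8.31, 9.05, 9.67, 9.96 and 10.34 in water rats. At 24 h they were 9.24, 10.03 and 10.70 in ethanol rats, against 9.12, 9.77 and 10.45 in water rats. The groups overlapped widely, with 6 of 11, 4 of 10 and 2 of 10 ethanol arrays above all water arrays of the time, and 22 of 31 above the water median. The difference was 0.42 ± 0.16 (0.10 to 0.74), a 1.34-fold signal, and did not pass (p = 0.0123, adjusted p = 0.519). With the run block it was 0.47 ± 0.12 (0.23 to 0.71), also not passing (adjusted p = 0.0616). It passed only with the Gapdh covariate added to the run block (adjusted p = 0.0466). Within runs 1 to 4 the difference was 1.03, 0.49, 0.05 and 0.75, so run 3 showed next to none.

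Gabrb2 (1377773_at) read lower in ethanol rats. Its lowest, median and highest values at 1 h were 12.81, 13.35 and 13.55 in ethanol rats, against 13.27, 13.46 and 13.64 in water rats. At 6 h they were 12.83, 13.27 and 13.91 in ethanol rats, against single values of 13.47, 13.60, 13.68, 13.73 and 13.98 in water rats. At 24 h they were 12.81, 13.24 and 13.65 in ethanol rats, against 12.80, 13.35 and 13.72 in water rats. In all, 25 of 31 ethanol arrays were below the water median, and 7 of 10 at 6 h were below every water array of that time. The difference was −0.21 ± 0.08 (−0.37 to −0.05), a 0.864-fold signal, and did not pass (p = 0.0122, adjusted p = 0.519), nor did it with the run block (−0.22 ± 0.08, adjusted p = 0.178). Within runs 1 to 4 it was −0.35, −0.27, −0.05 and −0.45. The dim Gabrb2 probe set showed no such difference, at −0.00 ± 0.04 without a filter.

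**Figure D3:**
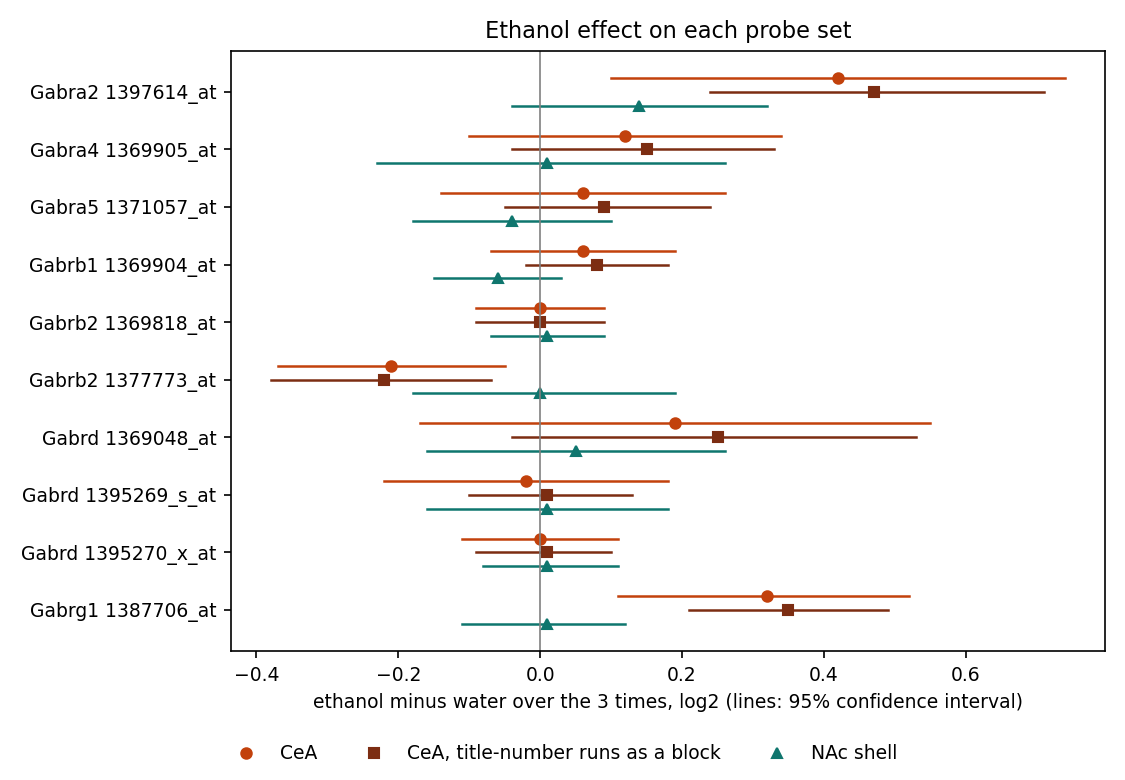
Ethanol minus water difference in log2 signal over the 3 times for each member probe set, with 95% confidence intervals, in the CeA, in the CeA with the runs as a block, and in the NAc shell (probe sets under the filter come from the fit without it). In the CeA the intervals of Gabra2, Gabrg1 and Gabrb2 1377773_at do not reach 0, and in the NAc shell every interval covers 0.

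The remaining members did not pass in the CeA and their intervals covered 0. Gabrd 1369048_at was at 0.19 ± 0.18 (−0.17 to 0.55, adjusted p = 0.784), a difference not detectable at its spread, and 1395269_s_at was at −0.02 ± 0.10 (−0.22 to 0.18). Within runs 1 to 4 the first of these was at −0.11, 0.54, −0.09 and 1.12. Gabra5 was at 0.06 ± 0.10 (−0.14 to 0.26, adjusted p = 0.883) and Gabrb1 at 0.06 ± 0.06 (−0.07 to 0.19, adjusted p = 0.797). Without a filter Gabra4 was at 0.12 ± 0.11 (−0.10 to 0.34, adjusted p = 0.865) and Gabrd 1395270_x_at at −0.00 ± 0.05.

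**Figure D4:**
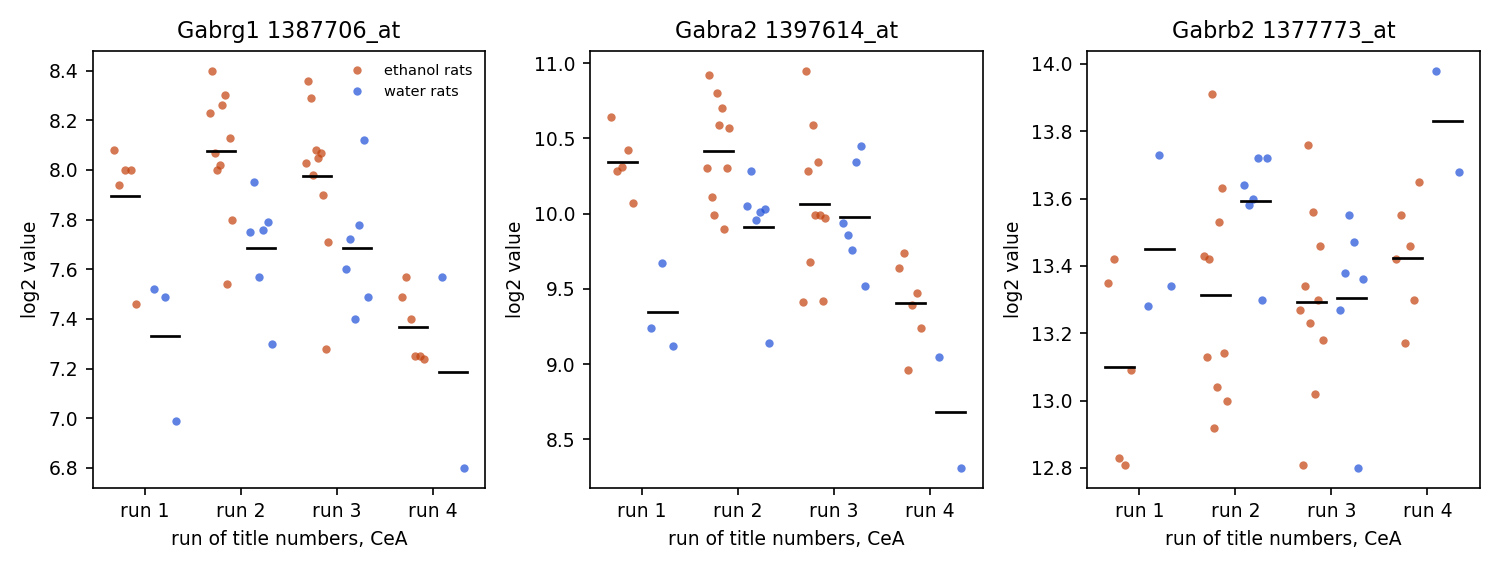
Log2 signal of Gabrg1, Gabra2 and Gabrb2 1377773_at on each CeA array by run of title numbers, ethanol beside water, with the mean as a bar. Gabrg1 and Gabra2 have their lowest means of both treatments in run 4, where Gabrb2 has its highest.

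No single time passed. At 1, 6 and 24 h, 0 of 18625 probe sets (0%) passed in limma, with 5.43%, 8.22% and 0.655% under an unadjusted p of 0.05. At 6 h Gabra2 was at 0.65 ± 0.29 (p = 0.0294), Gabrd 1369048_at at 0.52 ± 0.32 (p = 0.115), Gabrg1 at 0.45 ± 0.18 (p = 0.0176) and Gabrb2 1377773_at at −0.39 ± 0.15 (p = 0.011), each with adjusted p = 0.571. That group of 5 water arrays holds both run 4 water arrays, and with the run block the 6 h differences of Gabra2, Gabrg1 and Gabrb2 1377773_at were 0.44, 0.30 and −0.37. With the block the largest Gabrg1 difference was instead at 1 h, 0.52 ± 0.12 (p = 0.000107, adjusted p = 0.211), against 0.33 ± 0.17 without it. At 24 h Gabra2, Gabrg1 and Gabrb2 were at 0.35 ± 0.27, 0.16 ± 0.17 and −0.10 ± 0.14. The test of whether the ethanol difference depended on time passed for no tested member probe set (adjusted p = 0.979 for each of the 7). It passed for 0 of 18625 probe sets (0%), with 1.34% under an unadjusted p of 0.05.

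Within ethanol rats of the CeA, signal did not pass a test across the 3 times for any of the 7 tested member probe sets, where 0.0591% of all probe sets did. Gabrg1 had the smallest p, with 24 h minus 1 h at −0.25 ± 0.15 (adjusted p = 0.977). With the run block 24 h minus 1 h was −0.37 ± 0.10 (limma, p = 0.000826, adjusted p = 0.484). The blocked limma test across the 3 times gave p = 0.00342 for Gabrg1 (adjusted p = 0.475).

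In the NAc shell no member passed between ethanol and water rats, and the 95% intervals over the 3 times all covered 0. Over the 3 times 0 of the 7 tested member probe sets passed, as did 0 of all 18625 (0%), with 2061 (11.1%) under an unadjusted p of 0.05. Gabra2 was at 0.14 ± 0.09 (−0.04 to 0.33, adjusted p = 0.579), with 20 of 31 ethanol arrays above the water median. Gabrb1 was at −0.06 ± 0.04 (−0.15 to 0.03, adjusted p = 0.624), Gabra5 at −0.04 ± 0.07 and Gabrb2 1377773_at at 0.00 ± 0.09 (−0.19 to 0.19). The 3 Gabrd probe sets were at 0.05 ± 0.11, 0.01 ± 0.08 and 0.01 ± 0.05. Without a filter, Gabrg1 was at 0.01 ± 0.06 (−0.11 to 0.12) and Gabra4 at 0.01 ± 0.12.

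The NAc shell values show how flat the groups were. Gabrg1 had medians of 7.04, 6.96 and 7.05 at 1, 6 and 24 h in ethanol rats, against 7.11, 6.93 and 6.94 in water rats. Gabra2 had medians of 8.87, 8.98 and 8.85 in ethanol rats, against 8.91, 8.86 and 8.75 in water rats. Single times also called 0 of 18625 probe sets (0%) each, with 1.88%, 5.23% and 3.74% under an unadjusted p of 0.05. Gabrb1 at 24 h was at −0.14 ± 0.08, with 10 of 11 ethanol arrays below the water median, and did not pass (p = 0.0641, adjusted p = 0.999). Gabrd 1395270_x_at at 1 h was at 0.16 ± 0.08, with 10 of 10 ethanol arrays above the water median, and did not pass (p = 0.046, adjusted p = 1).

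Whether the ethanol difference itself differed between the regions was tested directly. Gabrg1 was at 0.31 ± 0.12 (CeA minus NAc shell, 0.07 to 0.54), the smallest p among the members (p = 0.0109), and did not pass (adjusted p = 0.455). Gabra2 was at 0.28 ± 0.19 (adjusted p = 0.644), Gabrb2 1377773_at at −0.21 ± 0.13 (adjusted p = 0.594) and Gabrb1 at 0.12 ± 0.08 (adjusted p = 0.627). None of the 8 tested passed, where 0.00508% of all 19678 probe sets did (1), with 9.07% under an unadjusted p of 0.05. The data therefore do not show that any of these ethanol differences is particular to the CeA.

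The members also varied together from array to array. After each group mean was subtracted, Gabra2 and Gabrg1, which are neighbours on chromosome 14, had a Pearson r of 0.84 over the 48 CeA arrays (Spearman's rho 0.82, r = 0.80 without the 2 arrays furthest out), and r = 0.68 with run means also removed. The same genes had r = −0.13 in the NAc shell. Gabra5 and Gabrb1 had r = 0.80 in the CeA (0.64 with run means removed) and −0.07 in the NAc shell. Gabra2 and Gabra4 had r of 0.72 in the CeA against 0.70 in the NAc shell, and Gabra4 and Gabrd 1395269_s_at had 0.70 and 0.78. These values compare probe sets read on the same arrays, so on each array both probe sets of a pair share a tissue sample, a labelling reaction and a normalisation.

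Gabrb2 1377773_at went against the other genes in the CeA. Its r with the probe sets of the other 6 genes was −0.29 to −0.59 in the CeA. For the NAc shell it was −0.79 with Gabrd 1369048_at and −0.80 with Gabrd 1395269_s_at, but 0.33 with Gabrb1 and 0.38 with Gabrg1. The probe sets of one gene were less alike than some pairs of genes. The 2 Gabrb2 probe sets had r of 0.29 in the CeA against 0.23 in the NAc shell, whereas Gabrd 1369048_at and 1395269_s_at had 0.78 and 0.85.

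**Figure D5:**
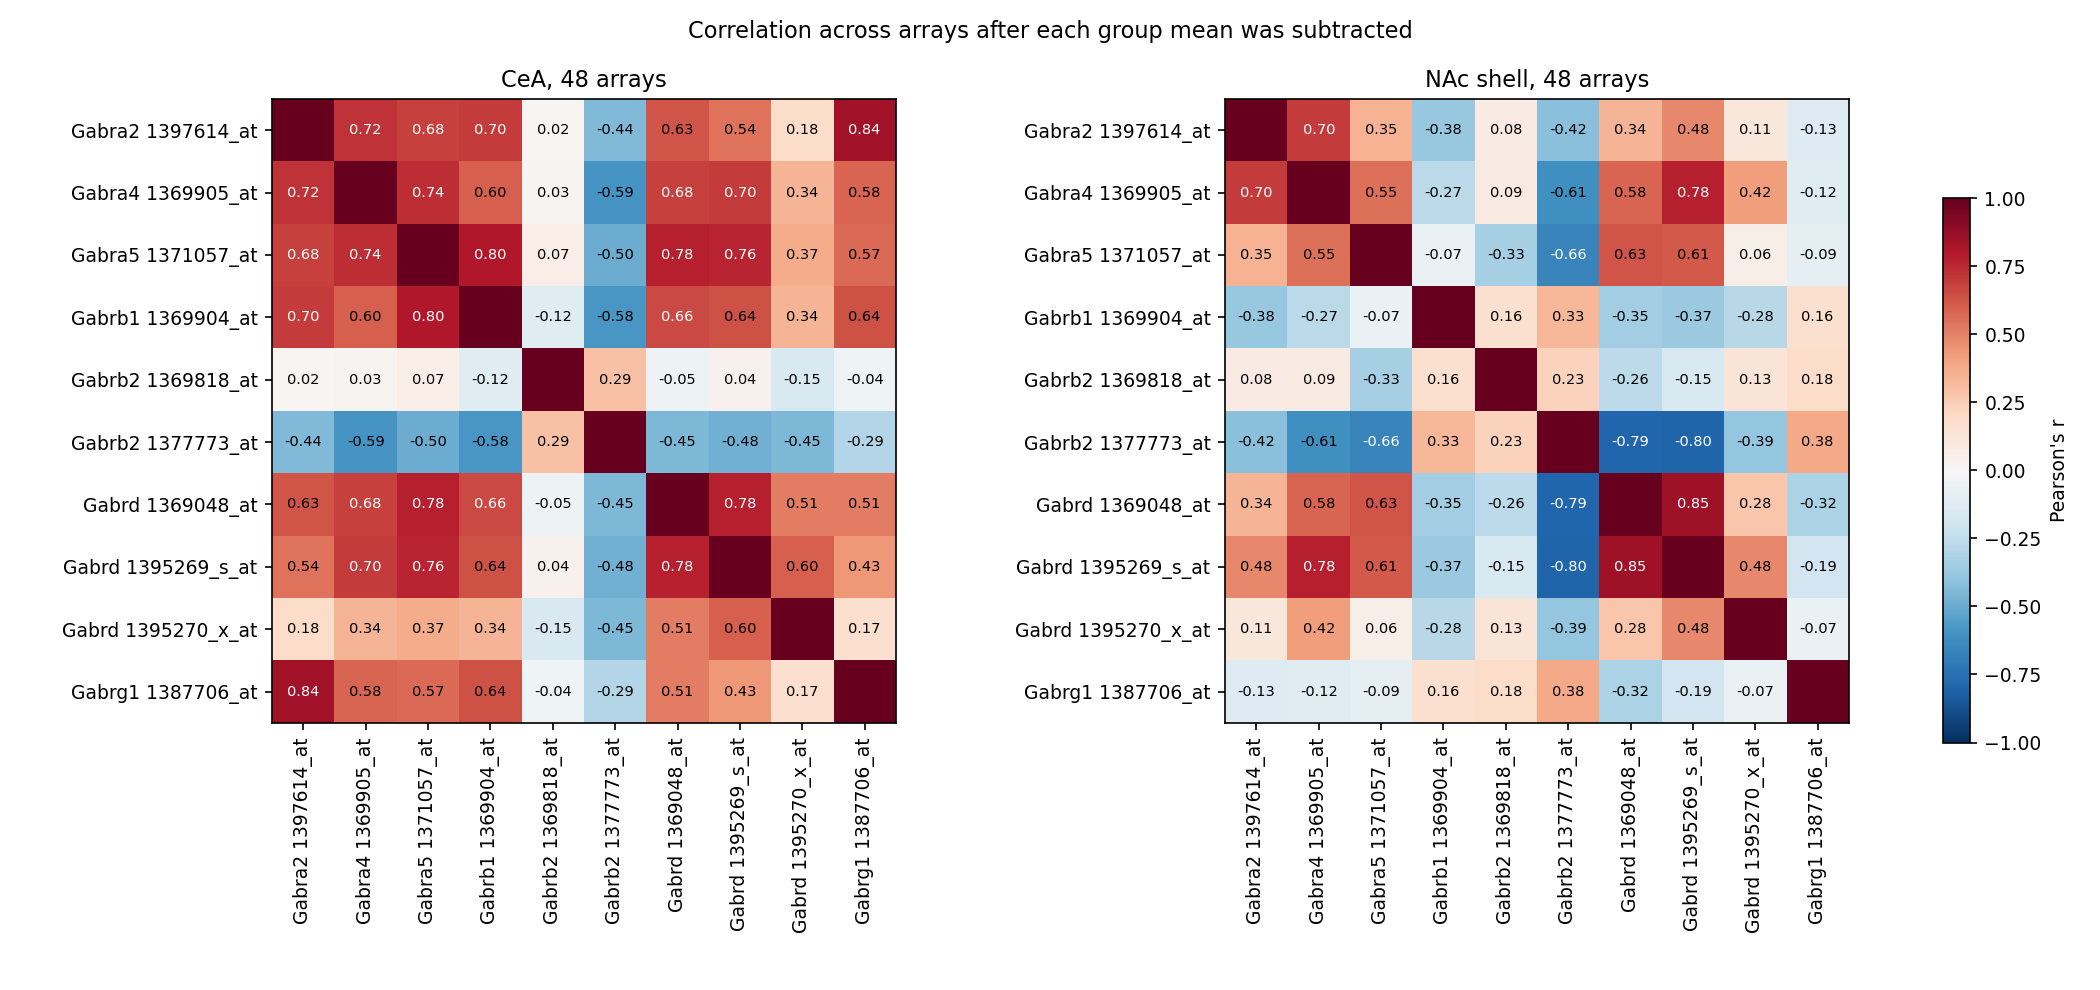
Pearson's r between member probe sets over the 48 arrays of each region after group means were subtracted. Red blocks in the CeA join Gabra2, Gabra4, Gabra5, Gabrb1, Gabrd and Gabrg1, and Gabrb2 1377773_at is blue against them. The Gabra2 and Gabrg1 pair is at 0.84 in the CeA against −0.13 in the NAc shell, where Gabrg1 lies under the filter.

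Cell type markers moved with the members in the same arrays, and their part in the ethanol differences was not tested. Over the 48 CeA arrays, the mean of the 7 CeA neuron markers had r = 0.87 with Gabrb1, 0.66 with Gabra2, 0.56 with Gabrg1 and −0.71 with Gabrb2 1377773_at. The mean of the 5 oligodendrocyte markers had r = −0.77, −0.61, −0.55 and 0.71 with the same 4 probe sets, and that of the 6 microglia markers −0.77, −0.51, −0.43 and 0.75. Gabrd 1369048_at had r = 0.90 in the CeA against 0.93 in the NAc shell with the striatal neuron markers. Gabrb2 1377773_at had r = −0.79 with those markers in the NAc shell and 0.85 with markers of thalamic or hypothalamic neurons.

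In the CeA of ethanol rats the CeA neuron markers leaned higher than in water rats, and oligodendrocyte and microglia markers leaned lower, though 0 of their genes passed. All 6 tested CeA neuron markers were above 0 over the 3 times (median 0.16, range 0.04 to 0.49), where 49.3% of all probe sets were. All 5 tested microglia markers were below 0 (median −0.15), as were 4 of 5 oligodendrocyte markers (median −0.13). The mean level of the CeA neuron markers ranged over 8.0 to 9.88 (median 9.03) in ethanol arrays and 8.04 to 9.43 (median 8.94) in water arrays. That of the oligodendrocyte markers ranged over 12 to 13.61 (median 12.73) in ethanol arrays and 11.85 to 13.57 (median 13) in water arrays. Microglia markers ranged over 7.95 to 8.76 (median 8.34) in ethanol arrays and 8.07 to 8.95 (median 8.46) in water arrays. General neuron markers went the other way from the CeA neuron list, with medians of 11.72 in ethanol and 11.76 in water arrays. So did interneuron markers, at 7.99 and 8.12, whereas striatal neuron markers were at 9.71 and 9.60. Astrocyte markers were at 12.88 and 12.94. Most markers of the CeA neuron list read lower in the CeA than in the NAc shell, as given above. At 6 h the medians were 0.38 for CeA neuron, −0.46 for oligodendrocyte and −0.36 for microglia markers. With the run block over the 3 times they were 0.19, −0.18 and −0.16. The Gapdh 3′ minus 5′ signal had weak correlations with Gabra2 (−0.24), Gabrg1 (−0.10) and Gabrb2 1377773_at (0.13).

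The named genes most like each member, by Pearson's r over the 48 CeA arrays after group means were removed, were Cntn3 and Map2 for Gabra2 (0.86 each) and Rab40b and Hapln1 for Gabra4 (0.85 and 0.83). They were Plag1 and Camsap2 for Gabra5 (0.92 and 0.90), Nol4 and Fndc3b for Gabrb1 (0.93 and 0.92) and Lgr5 and Sema3c for Gabrb2 (0.94 and 0.92). For Gabrd they were Ano3 and Rem2 (0.94 each), and for Gabrg1 Pnma8b and Aftph (0.89 and 0.87). With run means also removed, Gabra2 was most like Gad2, an enzyme that makes GABA, and Arid4a (0.81 and 0.78), while Gabrg1 kept Pnma8b and Aftph (0.76 and 0.75). In the NAc shell the nearest named genes were Ppp3cb and Rcan1 for Gabra2 (0.86 and 0.81), Nkiras1 and Epha4 for Gabra4 (0.88 each) and Hnrnpll and Cnksr2 for Gabra5 (0.83 each). They were Plxnc1 and Atp6v1c2 for Gabrb1 (0.81 and 0.80), Pip5kl1 and Ppp3cb for Gabrb2 (0.94 and 0.93), Kctd1 and Septin6 for Gabrd (0.94 and 0.93) and Ppargc1a and Anapc10 for Gabrg1 (0.70 and 0.66). Ppp3cb, a catalytic subunit of calcineurin, appears for both Gabra2 and Gabrb2 through different probe sets, and these members had r = −0.42 with each other.

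Other genes of the receptor system gave few differences by treatment. A further 9 subunit genes with a probe set were looked at. Of these only Gabre, encoding epsilon, lay above the filter, and only in the CeA, with 7.85 ± 0.41 in the CeA against 6.16 ± 0.20 in the NAc shell. Its CeA−NAc shell difference was 1.71 ± 0.08 in ethanol rats (adjusted p = 1.27e-33) and 1.66 ± 0.12 in water rats (adjusted p = 8.08e-24). Gabre too entered that test only through the CeA, where it is high, so these p-values are no separate support. Its ethanol difference in the CeA was 0.01 ± 0.13 (adjusted p = 0.991).

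Of 27 genes for clustering, assembly and trafficking of the receptor, 25 had a probe set and 23 were tested in each region. In the CeA 0 of 23 passed for ethanol, 13 being above 0 and 10 below (median 0.03), against 49.3% of all probe sets above 0. The smallest p belonged to Zdhhc3, an enzyme that palmitoylates gamma subunits, at −0.14 ± 0.06 (adjusted p = 0.594), and to Arfgef2 at −0.09 ± 0.05 (adjusted p = 0.64). In the NAc shell 0 of 23 passed, 17 being above 0 and 6 below (median 0.04), where 53.4% of all probe sets were above 0, with Gabarapl1 at 0.15 ± 0.08 (adjusted p = 0.464) and Akap5 at 0.26 ± 0.13 (adjusted p = 0.467). Of 5 genes for chloride transport and its control, 0 passed in either region. In the CeA, 4 of the 5 were below 0 (median −0.10), led by Clcn2, a chloride channel, at −0.10 ± 0.06 (adjusted p = 0.642), and Stk39, a kinase of chloride cotransporters, at −0.13 ± 0.07 (adjusted p = 0.648). In the NAc shell 3 were above 0 (median 0.01), led by Slc12a5, the neuronal chloride exporter KCC2, at 0.04 ± 0.04 (adjusted p = 0.719), and Stk39 at 0.02 ± 0.05 (adjusted p = 0.919).

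Between regions these lists split both ways. In ethanol rats 19 of 23 clustering genes passed, 10 higher and 9 lower in the CeA. Lhfpl3, of the family of receptor auxiliary proteins, was at 1.47 ± 0.06 (adjusted p = 6.3e-40), Plcl1 at 0.80 ± 0.05 (adjusted p = 5.96e-27), Iqsec3 at 1.39 ± 0.12 (adjusted p = 3.04e-19) and Plcl2 at −0.55 ± 0.04 (adjusted p = 6.77e-21). In water rats 17 of 23 passed, 10 higher and 7 lower in the CeA. In ethanol rats 3 of the 5 chloride genes passed, with Wnk1 at 0.59 ± 0.05 (adjusted p = 6.31e-19), Stk39 at 0.48 ± 0.05 (adjusted p = 2.96e-13) and Clcn2 at −0.24 ± 0.05 (adjusted p = 3.85e-06). Both shares lie near or below the background of 82.8% of all probe sets in ethanol rats.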

How the data were processed

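RNA from the CeA and NAc shell was labelled by a 2-cycle protocol from 25 ng and hybridised to Affymetrix rat arrays, per the labels. The authors' deposited values are log2 signals, and RMA (background correction, quantile normalisation and probe summary) is named in the submitters' processing notes. Their other settings are not given in the sources used here, and precision is limited by the number of arrays. Apart from 57 controls, which were not used, there were 31042 probe sets. Of these, 20826 had 1 symbol in GEO's platform annotation, 436 several and 9780 none.

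Each region's 48 arrays were fitted in limma 3.58.1 (R 4.3.3, eBayes with trend) with 1 mean per treatment and time, and both regions together for regional differences. Probe sets at or below the 40th percentile of mean signal in a region were left out, 18625 remaining in each. P-values were adjusted by Benjamini-Hochberg over all probe sets tested, and an adjusted p under 0.05 passed. The procedure was tested on simulated data.

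The members and lists were chosen with earlier results of these data known. Every member probe set is named. A further list gene is named where it passes (up to 4 by smallest p), otherwise the 2 of smallest p are named as not passing. The probe set of highest mean stands for a list gene or for a member in the search for genes of like pattern. Ethanol and water arrays that share a title number were not paired. Of 17 such CeA pairs, 8 had a correlation of deviations over 0.1 (−0.781 to 0.748), and the 3 NAc shell pairs had −0.458 to −0.183. Alternatives were other filters, normalisation over all 96 arrays, a Gapdh covariate, quality weights, run and number blocks, and leaving out arrays. The run block combined with other choices was added after the data were seen.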

Additional observations from a re-analysis of the deposited data

Results flagged for a closer look

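An array standing apart from the rest of its group, by Dixon's criterion for groups of 4 to 10 arrays, was found in 9 of 100 groups examined over the member probe sets, where chance flags about 1 in 20. Gabra2 had a high array at 9.81 in NAc shell ethanol rats at 1 h (nearest 9.10) and a low one at 8.51 in NAc shell water rats at 24 h (nearest 8.75). Gabra4 had a high array at 7.03 in CeA ethanol rats at 6 h (nearest 6.30). Gabra5 had a low array at 10.41 in NAc shell water rats at 1 h (nearest 10.83). Gabrb1 had a low array at 12.92 in CeA water rats at 1 h (nearest 13.21). Gabrb2 1377773_at had a high array at 13.43 in NAc shell water rats at 6 h (nearest 12.74). Gabrd 1369048_at had low arrays at 10.20 in NAc shell ethanol rats at 1 h (nearest 10.91) and at 9.99 at 6 h (nearest 10.69). Gabrd 1395270_x_at had a high array at 6.62 in CeA water rats at 6 h (nearest 6.17). None of the 9 concerned Gabrg1.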

How the results depend on the processing

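For the CeA ethanol difference over the 3 times, 0 of 7 tested member probe sets passed as reported. With the runs as a block, or with array quality weights, 1 passed (Gabrg1). So did 1 (Gabrg1) with the block and no filter (of 10), and with the block and without the low-correlation arrays. With the block and the Gapdh covariate 2 passed (Gabrg1 and Gabra2). Gabrg1 was at 0.35 to 0.40 in these settings. Leaving out 1 array at a time, without the block, Gabrg1 was at 0.26 to 0.35 (adjusted p = 0.145 to 0.632), Gabra2 at 0.32 to 0.49 (0.237 to 0.813) and Gabrb2 1377773_at at −0.25 to −0.19 (0.185 to 0.824), so none of the 3 passed, and all 8 regional calls held. The regional difference of Gabra5 in ethanol rats became −0.19 with the Gapdh covariate and did not pass. Within single runs the CeA ethanol difference turned its sign for Gabrd 1369048_at (−0.11 in run 1 and −0.09 in run 3), for Gabrd 1395269_s_at (0.18 in run 2 and 0.07 in run 4) and for Gabra5 (−0.07 in run 3). None of the values that turned their sign had passed, and none passed after the turn. At 1 h in the CeA, Gabrd 1369048_at (−0.07 as reported) was at 0.12 with quality weights, 0.02 without the low-correlation arrays, 0.18 with the run block (with or without a filter), 0.16 with the block and the Gapdh covariate and 0.17 with the block and without those arrays. Gabrb1 at 1 h (−0.04) was at 0.03 with weights, 0.06 with the block (also with no filter or without those arrays) and 0.07 with the covariate added, and Gabra5 (−0.16) at 0.00 and 0.01 with the block and the covariate or without those arrays. Over the 3 times, Gabrd 1395269_s_at (−0.02) was at 0.03 with weights, at 0.01 with the block, alone, with no filter or with the covariate, and at 0.00 with the block and without those arrays. In the NAc shell Gabra2 at 1 h (−0.03) was at 0.03 with weights, 0.02 with the covariate and 0.00 without the low-correlation arrays. At 6 h Gabrd 1369048_at (0.02) was at −0.00 with quantile normalisation repeated and −0.01 with weights, Gabra5 (0.02) at −0.02 with the covariate, Gabrb2 1377773_at (−0.03) at 0.02 with weights or the covariate, and Gabrd 1395269_s_at (−0.01) at 0.04 without those arrays. At 24 h Gabrd 1395269_s_at (0.02) was at −0.00 with the normalisation repeated and −0.06 with the covariate. Over the 3 times Gabrb2 1377773_at (0.00) was at −0.02, −0.00 and −0.04 with the normalisation repeated, with weights and without those arrays, and Gabrd 1395269_s_at (0.01) and 1395270_x_at (0.01) were at −0.03 and −0.00 with the covariate. The cause was not tested. With the title number as a replicate block no member call changed (Gabra2 0.44, adjusted p = 0.391), the block's consensus correlation being 0.0733 (CeA) and −0.294 (NAc shell), and 0 of 17 CeA arrays correlated best with the array of its own number. Of the lowest and highest values on leaving out 1 array, 139 kept their sign and 21 did not, among them Gabrd 1369048_at (0.05 at 1 h and −0.05 at 24 h in the CeA, −0.14 at 6 h in the NAc shell), Gabrd 1395269_s_at (0.15 at 6 h in the CeA), and Gabra2 (0.08 at 1 h) and Gabrb2 1377773_at (0.14 at 6 h) in the NAc shell. The other 693 values under alternatives, and 23 of 28 within runs, kept their direction and side of the threshold.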
